A study of Mus musculus with 10 samples.

Results

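Blood vessel endothelial cells, the flat cells that line arteries, capillaries and veins, were taken from single-cell RNA-seq libraries of embryonic mouse back skin. A cell was a member when at least 3 of the 5 endothelial genes Pecam1, Cdh5, Kdr, Tie1 and Cldn5 had a unique molecular identifier (UMI), no UMI of the lymphatic regulator Prox1 was present and the epithelial keratins Krt5 and Krt14 summed to under 10 UMIs. The rule was applied to cells with over 1000 and under 6000 genes and under 10% mitochondrial UMIs. It gave 636 members among 55482 such cells, and 41528 other cells with few keratin UMIs served as the non-epithelial comparison. The members were thus chosen by the measured UMIs of these 8 genes, whose levels are given as a description only.

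The study asked what loss of MOF (gene Kat8), the histone acetyltransferase that acetylates lysine 16 of histone H4, and loss of QPC (gene Uqcrq), a subunit of respiratory complex III, does to developing skin. Skin of MOF cKO (MOFfl/fl/K14Cre) embryos gave 2 libraries at each of E15.5 and E16.5, matched by 2 control libraries per stage. Skin of a QPC cKO (QPCfl/fl/K14Cre) embryo gave 1 library at E17.5, with 1 control. All animals were on a mixed C57Bl/6J and CD-1 background, controls were littermates, and total back skin was digested with collagenase and then trypsin. The Krt14 promoter that drives the Cre is active in surface epithelium and is not a driver for endothelium. By the driver the members should lie outside the targeted lineage, which was not tested. The study describes the E15.5 MOF cKO library 6 as mosaic in the epidermis. Each stage was run with its own 10x chemistry (3′ v3.1 at E15.5, v2 at E16.5 and v3 at E17.5), so stage and chemistry cannot be told apart. Replicates are separately labelled samples, and p-values are set against the spread between them. In edgeR tests part of that spread is shared over genes, so a small p does not show that a gene's own replicates lie close together.

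Endothelium specializes along the vascular tree. Arterial cells use Notch signalling and carry Efnb2, Dll4, Sox17 and the gap junction proteins of Gja4 and Gja5. Venous cells carry Nr2f2 and Ephb4, and sprouting tip cells carry Apln, Esm1 and Angpt2. Capillaries of developing skin grow by division of their endothelial cells, and activated endothelium displays adhesion molecules such as Icam1 and secretes chemokines that attract leukocytes.

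At E15.5 the controls held 91 and 82 members and the MOF cKO libraries held 188 and 108. At E16.5 the controls held only 8 and 52, and the MOF cKO libraries held 17 and 17. The E17.5 libraries held 34 control and 39 QPC cKO members. All 5 rule genes had a UMI in 73, 67, 158 and 89 members at E15.5, in 4, 31, 13 and 13 at E16.5 and in 28 and 34 at E17.5. Median depth was 8987 UMIs per member in E16.5 control 1 and between 13393 and 20071 in the other 9 libraries. Summed over members, the depth ran from 76663 UMIs in E16.5 control 1 to 3973272 in E15.5 MOF cKO 5, so E15.5 values are the most precise and those of E16.5 control 1 the least. Of the 45 pairs of libraries 23 shared cell barcodes, at most 36 in a pair, and no shared barcode was a member.

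The label was checked with 25 endothelial genes that the rule did not use. Their summed level was 7399 to 12416 CPM (UMIs scaled to the same total of all members' UMIs per library, as counts per 1e6) in the members of each library, and all 25 were detected in every library except E16.5 control 1, where 1 was at 0. In E15.5 control 2 the same genes summed to 8562 CPM in members, 468 CPM in other non-epithelial cells and 64.9 CPM in keratin-positive cells. Among genes at 50 CPM or more in every control, those with the highest ratios to all other kept cells included C1qtnf9 (314-fold), Gimap4 (294-fold), the arterial transcription factor Sox17 (292-fold), the adhesion receptor Adgrl4 (280.2-fold) and Gpihbp1 (263-fold), which carries lipoprotein lipase across capillary walls. Gpihbp1 ranged from 736 to 1584 CPM over the 5 controls and Emcn, an endothelial sialomucin, from 432 to 652 CPM. These include arterial, capillary and pan-endothelial genes, and they are given as a description, since the cells were chosen for being endothelial.

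The edges of the rule were visible in the same 25 genes. Cells with 3 rule genes (23, 13 and 5 members) reached 3674, 2553 and 1993 CPM at E15.5, E16.5 and E17.5, and cells with 4 or 5 reached 7761, 8811 and 12685 CPM. Members with 3 rule genes also held fibroblast markers at 12839, 8777 and 3672 CPM, against 1658, 1483 and 793 CPM in members with 4 or 5. Their immune markers were at 163, 8727 and 0 CPM, against 74.4, 129 and 8.31 CPM. Cells just outside, with 2 rule genes, had 368, 553 and 268 CPM. Cells left out for Prox1 carried the lymphatic marker list at 2766, 6088 and 9849 CPM, whereas members had 65.2 to 236 CPM of it in each library. Within that range the E16.5 groups stood apart, at 65.2 and 77.9 CPM in controls and 188 and 236 CPM in MOF cKO libraries.

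Members made up 1.08% (exact Clopper-Pearson 95% interval 0.874 to 1.33) and 0.899% (0.716 to 1.12) of kept cells in E15.5 controls 2 and 3. In MOF cKO 5 and 6 they made up 1.85% (1.59 to 2.13) and 1.01% (0.832 to 1.22). MOF cKO 5 stood above the other 3 libraries, and MOF cKO 6 lay between the controls. E16.5 controls 1 and 2 held 0.702% (0.303 to 1.38) and 2.13% (1.59 to 2.78) members, against 2.37% (1.39 to 3.77) and 1.25% (0.728 to 1.99) in the MOF cKO libraries, so the groups overlap. The mean difference of 0.418 percentage points over both stages was within the spread between libraries (exact two-sided permutation test, p = 0.389, where the smallest possible p is 0.0556). It was 0.131 points as a share of cells with few keratin UMIs, 0.109 points with mitochondrial UMIs under 5%, 0.107 points without members marked for another cell type other than erythroid, and 0.0622 points without E16.5 control 1. In other settings it was larger, at 0.777 points with at least 2 rule genes required and 0.644 points with no upper limit on detected genes. Without E16.5 control 2 it was 0.774 points, and without E16.5 MOF cKO 2 it was 0.700 points. Keratin-positive cells, which are part of the denominator, numbered 2635 and 2896 in E15.5 controls against 1061 and 1648 in MOF cKO libraries, and 266 and 512 against 30 and 39 at E16.5. At E17.5 the control and QPC cKO shares were 0.635% (0.440 to 0.886) and 0.637% (0.454 to 0.870), with 3069 and 1162 keratin-positive cells. As shares of cells with few keratin UMIs they were 1.49% (1.03 to 2.07) and 0.787% (0.560 to 1.07), and with only 2 of the 5 rule genes required 0.841% (0.614 to 1.12) and 1.68% (1.38 to 2.04). With 4 of the 5 required they were 0.579% and 0.605%. The near equality thus depended on the denominator and on leaving out cells with 2 rule genes. Those cells numbered 11 and 64 and held 14841 CPM of fibroblast markers, against 268 CPM of endothelial genes outside the rule. Intervals cover counting error only, and shares also depend on how many of each cell type the digestion released.

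**Figure D1:**
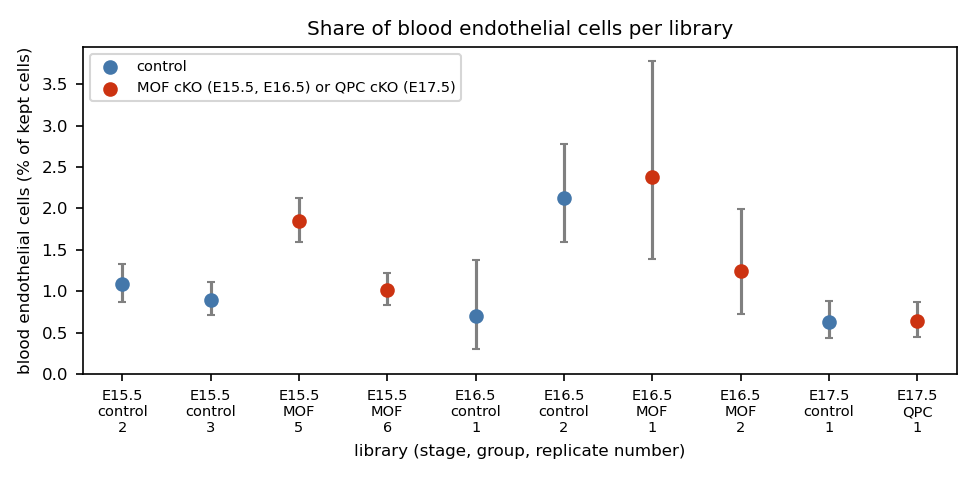
Percent of kept cells that met the endothelial rule (vertical axis) in each of the 10 libraries, with exact 95% binomial intervals as bars. The shares run from 0.635% to 2.37%, and control and MOF cKO libraries overlap at E16.5.

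The targeted genes were read in members and in keratin-positive cells (Krt5 and Krt14 at 10 UMIs or more). In members, Kat8 stood at 11 and 12.2 CPM in the E15.5 controls and at 4.53 and 2.19 CPM in MOF cKO libraries, from 18, 20, 18 and 5 UMIs. The groups did not overlap, but the log2 fold change of −1.62 (SE 0.42) was not called (edgeR quasi-likelihood test, Benjamini-Hochberg adjusted p = 0.056), and it did not differ detectably from that in other non-epithelial cells (difference −0.94, edgeR adjusted p = 0.466). At E16.5 the members held 1 and 9 Kat8 UMIs in controls and 0 in either MOF cKO library, too few to be tested. In keratin-positive cells Kat8 was at 13.0 and 14.0 CPM in E15.5 controls and 13.0 and 10.0 CPM in MOF cKO libraries, and at 17.6 and 14.8 CPM against 8.66 and 3.75 CPM at E16.5. Uqcrq at E17.5 was 106 CPM in control and 43.9 CPM in QPC cKO keratin-positive cells, while members held 164 and 184 CPM.

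At E15.5, endothelial cells of MOF cKO skin had lower levels of Rbp7 and of 3 of the 9 arterial genes tested (Gja4, Efnb2 and Jag1) than those of control skin. Of 9419 genes tested 120 were called at an adjusted p below 0.05, or 1.27%, with 62 higher and 58 lower (0.658% and 0.616%). In bulk sums such as these, fewer cells of a kind among the members and less RNA per cell cannot be told apart. Gja4, which encodes the arterial gap junction protein connexin 37 (GRCm38 chr4:127311421-127314039, minus strand), measured 84.6 and 73.5 CPM in controls and 29.2 and 28.0 CPM in MOF cKO libraries. Both MOF cKO libraries lay far below both controls, with a log2 fold change of −1.42 (SE 0.17, edgeR adjusted p = 5.61e-05). The change was stronger than in other non-epithelial cells by −1.40 (SE 0.28, edgeR adjusted p = 0.000124); such a difference was called for 1.48% of 16119 genes at E15.5, and for 0.648% of 12818 genes at the later stage. A similar share of members held a Gja4 UMI, 16.48% and 18.3% in controls and 13.8% and 22.2% in MOF cKO libraries.

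Efnb2, the ephrin ligand of arterial membranes, measured 122 and 125 CPM in controls and 67.7 and 84.5 CPM in MOF cKO libraries (log2 fold change −0.67, SE 0.14, edgeR adjusted p = 0.0178). Jag1, a Notch ligand, measured 46.0 and 32.4 CPM in controls against 18.9 and 18.4 CPM (−1.02, SE 0.22, edgeR adjusted p = 0.0167). All 3 of these genes fell without overlap between the groups, as did 24.2% of all genes tested. Gja4 stayed called when any 1 library was left out, while Efnb2 was called only without MOF cKO 6 (adjusted p 0.0844 to 0.204 without control 2, control 3 or MOF cKO 5) and Jag1 was lost without control 2 (−0.77, adjusted p = 0.292).

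Over the arterial list, 9 of 10 genes were tested, 3 were called lower and none higher, and 6 did not overlap (24.2% of all genes tested lay lower without overlap). The median log2 fold change was −0.79, against −0.00459 over all genes tested. Gja5, encoding connexin 40, measured 17.2 and 12.9 CPM against 6.04 and 6.13 CPM and missed the threshold (edgeR adjusted p = 0.0753). The Notch target Hey1 measured 20.8 and 26.3 CPM against 8.56 and 16.2 CPM (adjusted p = 0.122) and the netrin receptor Unc5b 46.0 and 59.4 CPM against 23.4 and 38.1 CPM (adjusted p = 0.0701). Dll4, at 36.2 and 52.6 CPM against 29.4 and 37.7 CPM, and Sox17, at 183 and 143 CPM against 144 and 112 CPM, overlapped between groups. DESeq2 called 1 gene of the list, and 1 fit of 8 libraries also called 1.

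**Figure D2:**
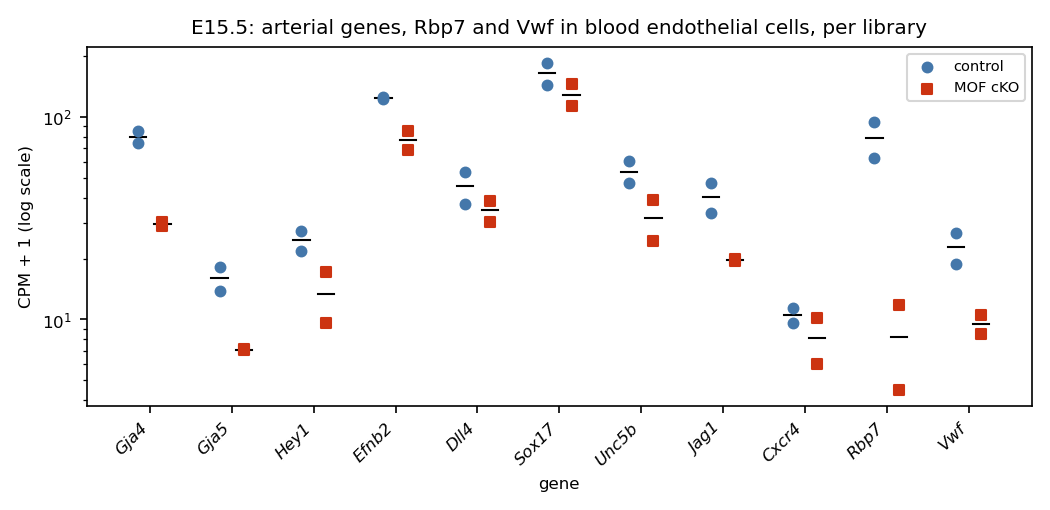
CPM plus 1 on a log axis in the endothelial cells of each E15.5 library for 9 arterial genes, Rbp7 and Vwf; circles are controls, squares MOF cKO libraries and bars group means. Gja4 lies at 84.6 and 73.5 CPM in controls and 29.2 and 28.0 CPM in MOF cKO libraries, and Rbp7 at 61.9 and 93.0 CPM against 10.8 and 3.50 CPM.

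The share of members with arterial genes was compared as well. After thinning every member to 5000 UMIs, the share with at least 2 arterial genes was 37.1% and 35.4% in E15.5 controls and 29.0% and 38.5% in MOF cKO libraries. At E16.5 it was 0% (0 of 7 cells) and 20% in controls and 29.4% and 25.0% in MOF cKO libraries. The difference over both stages, MOF cKO minus control, was 7.33 percentage points (exact permutation test, p = 0.389, adjusted over 5 subsets p = 0.648), within the spread between libraries. It was 2.33 points without E16.5 control 1 and 12.3 points without E16.5 control 2.

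Rbp7 encodes a retinoid-binding protein of endothelium (GRCm38 chr4:149449687-149454978, minus strand). It measured 61.9 and 93.0 CPM in E15.5 controls and 10.8 and 3.50 CPM in MOF cKO libraries, a log2 fold change of −3.23 (SE 0.29, edgeR adjusted p = 1.07e-06), and it stayed called without any 1 library. A UMI was present in 33.0% and 46.3% of control members and in 14.4% and 4.63% of MOF cKO members. The change was larger than in other non-epithelial cells by −2.63 (SE 0.54, edgeR adjusted p = 0.000324). At E16.5 Rbp7 was 26.1 and 69.8 CPM in controls and 3.03 and 148 CPM in MOF cKO libraries, which overlap, and at E17.5 it was 248 and 254 CPM in control and QPC cKO cells.

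Other called genes of vessel biology also fell. The phosphatase Ptprb, which restrains Tie2, measured 131 and 122 CPM in controls and 73.2 and 82.3 CPM in MOF cKO libraries (log2 fold change −0.67, edgeR adjusted p = 0.0153). Epas1, the hypoxia-inducible factor of endothelium, measured 186 and 132 CPM against 105 and 95.4 CPM (adjusted p = 0.0426), and the von Willebrand factor gene Vwf 25.7 and 17.8 CPM against 9.56 and 7.44 CPM (adjusted p = 0.031). The growth factor Hbegf was 74.8 and 64.9 CPM against 38.8 and 45.1 CPM (adjusted p = 0.0355), and Cthrc1, a secreted glycoprotein, 45.4 and 40.4 CPM against 9.56 and 15.8 CPM (adjusted p = 0.000128). Each of these 5 genes had both MOF cKO libraries below both controls, as did 24.2% of all genes tested. For genes named by size of change, such as Cthrc1, this was a condition of being named. Cthrc1 was called without any 1 library, whereas without control 2 the adjusted p was 0.147 for Ptprb, 0.639 for Epas1, 0.430 for Vwf and 0.282 for Hbegf.

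Among further genes named by size of change, Bcam, a laminin receptor, measured 45.4 and 22.6 CPM in controls and 8.05 and 11.4 CPM in MOF cKO libraries. Egfl8 measured 41.7 and 22 CPM against 9.82 and 10.1 CPM, and the microtubule regulator Stmn2 38.0 and 81.4 CPM against 21.1 and 24.1 CPM. Bcam and Egfl8 were lost without control 2 (adjusted p = 0.139 and 0.187) and Stmn2 without control 3 (0.328).

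Of 21 genes listed as secreted signals of endothelium 17 were tested, 1 was called higher (Igf1) and 2 lower, and the median was −0.32. Igf1, which encodes an insulin-like growth factor, measured 35.6 and 34.9 CPM in E15.5 controls and 74.0 and 55.6 CPM in MOF cKO libraries (log2 fold change 0.94, SE 0.19, edgeR adjusted p = 0.0134). Its change exceeded that in other non-epithelial cells by 1.17 (SE 0.17, adjusted p = 5.75e-09). The carboxypeptidase gene Cpe measured 6.13 and 6.12 CPM against 21.4 and 25.0 CPM (adjusted p = 0.00145), and Ccl2, a monocyte chemokine, 6.74 and 1.84 CPM against 14.8 and 17.51 CPM (adjusted p = 0.0168). Cpe was called without any 1 library, Igf1 only without MOF cKO 6 (adjusted p = 3.8e-05; otherwise 0.0717 to 0.161), and Ccl2 was lost without control 3 (adjusted p = 0.285).

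Most other endothelial lists held few calls at E15.5. None was called among 10 capillary, 11 tip cell, 7 VEGF, 12 junction, 10 flow-responsive, 18 S phase, 20 mitosis and 61 nuclear-encoded respiratory chain genes tested. Of the 25 pan-endothelial genes 2 were called lower (Ptprb and Tm4sf1), of 11 Notch pathway genes 1 lower (Jag1), of 7 venous genes 1 lower (Vwf) and of 27 endothelial transcription factors 1 lower (Epas1). The transcription factor Sox18 measured 113 and 138 CPM against 144 and 180 CPM and was not called (adjusted p = 0.248). The VEGF receptor gene Flt1 measured 296 and 242 CPM against 196 and 181 CPM (adjusted p = 0.0784). The venous regulator Nr2f2, at 96.8 and 86.9 CPM against 81.5 and 106 CPM, overlapped between the groups. All 18 immediate early genes were tested and 17 had negative fold changes, with a median of −0.26 and none called. Of these 13 lay lower without overlap (24.2% of all genes tested did), and the median was −0.36 without MOF cKO 5. Klf2, a shear stress factor, measured 986 and 776 CPM against 676 and 622 CPM (adjusted p = 0.202).

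Markers of other cell types also moved at E15.5. Of 8 fibroblast markers tested 5 were called higher (16.1% of all genes tested lay higher without overlap, and 7 of the 8 did). Col1a1 measured 270 and 150 CPM in controls and 516 and 724 CPM in MOF cKO libraries (log2 fold change 1.59), and Dcn 95.6 and 68.6 CPM against 194 and 234 CPM (1.41). The summed list was 1149 and 701 CPM against 2137 and 2891 CPM, with none of the 8 at 0. Cells with at least 3 of the 4 fibroblast markers Lum, Dpt, Pdgfra and Twist2 numbered 5 and 4 against 19 and 14. Postn, Dlk1 and Meg3, also among the largest rises, measured 11 and 11.6, 31.3 and 24.5, and 123 and 67.3 CPM in controls against 36.7 and 45.1, 70.2 and 161, and 281 and 431 CPM. Without cells that carried at least 3 markers of another type (erythroid markers not counted), 46 genes were called in place of 120, 36 of them shared. Col1a1 then changed by 0.38 and Dcn by −0.88 on the log2 scale, neither called, and 0 of 5 tested fibroblast markers was called. Lum, Dpt, Pdgfra and Twist2 belong to that list and also chose the cells left out. Fewer fibroblast calls thus follow from the choice of cells and are no separate result. Gja4 (−1.29, adjusted p = 0.00142), Efnb2 (−0.68, adjusted p = 0.0354), Jag1 (−1.11, adjusted p = 0.0336), Rbp7 (−3.17), Cthrc1 (−2.23) and Cpe (2.07) stayed called in edgeR, while Igf1 (0.83, adjusted p = 0.0985), Ccl2 (2.14, adjusted p = 0.101), Ptprb (−0.60, adjusted p = 0.0673) and Vwf (−0.91, adjusted p = 0.224) did not.

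Keratinocyte markers summed to 78.5 and 146 CPM in E15.5 controls and 29.2 and 58.2 CPM in MOF cKO libraries, with at most 1 of 10 at 0, and 2 of 5 tested were called lower. Krt15 measured 17.8 and 29.4 CPM against 1.26 and 9.19 CPM. Globins and other erythroid markers summed to 11344 and 13958 CPM in controls and 17322 and 22704 CPM in MOF cKO libraries, with at most 1 of 7 at 0, and 4 of 6 tested were called higher and 1 lower. The one that fell, the embryonic globin Hbb-y, measured 3.68 and 220 CPM against 2.01 and 6.13 CPM, and 1 cell of control 3 held 60.5% of that library's 359 UMIs. Its edgeR adjusted p in the test against other non-epithelial cells was still 1.14e-117. A small p in that test therefore does not show that the replicates of a gene lie close together. The part of keratinocyte and erythroid RNA in the other results was not tested.

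**Figure D3:**
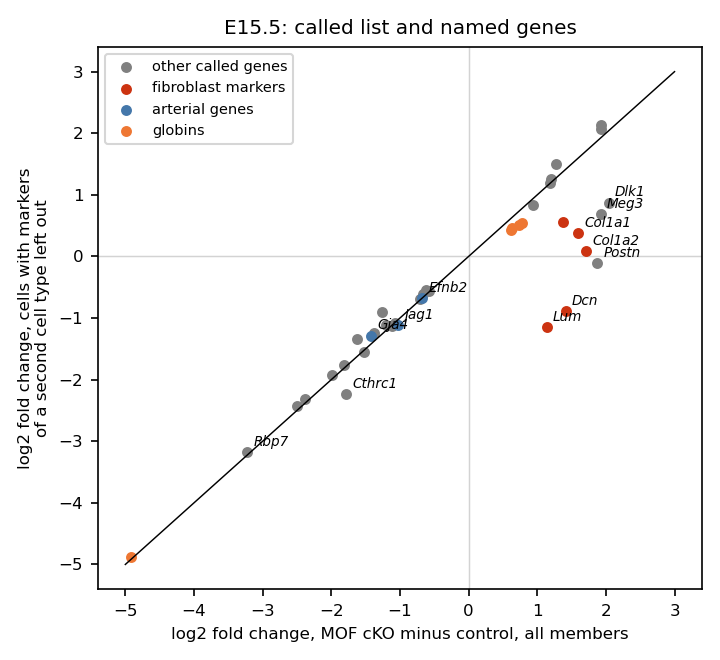
Log2 fold change of MOF cKO minus control at E15.5 over all members (horizontal axis) against the same without cells carrying at least 3 markers of another cell type, erythroid markers not counted (vertical axis), for called list genes and named genes; the line marks equality. Gja4, Efnb2, Jag1 and Rbp7 lie near the line, and the fibroblast markers Col1a1 and Dcn move from 1.59 to 0.38 and from 1.41 to −0.88.

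At E16.5, 5 of 11 mitosis genes tested were lower in MOF cKO endothelial cells, and 5 of 14 interferon, 3 of 17 immediate early and 3 of 8 adhesion and chemokine genes were higher, from far fewer cells. All 6 immune markers tested were higher too, and without the cells that carried such markers 1 gene was called. The filter on low counts admits genes that are high in 1 group alone, and such genes could differ in that direction only. Keratinocyte markers were lower, at 300.0 and 396 CPM in controls and 127 and 47.2 CPM in MOF cKO libraries. Of 4369 genes tested 72 were called, or 1.65%, with 58 higher and 14 lower (1.33% and 0.32%). These calls rest on control 1, which has 8 members. Without it 0 genes were called by edgeR (497 had an unadjusted p below 0.05), without control 2 it called 187, and DESeq2 called 34 with all libraries. In the refits without a control the other, lone control is assumed to vary as the MOF cKO libraries do. With the replicate number as a block edgeR called 0 genes (455 had an unadjusted p below 0.05). The medians of the lists were similar in both settings, for mitosis −2.60 without control 1 and −2.54 with the block, for interferon 1.54 and 1.47, and for immediate early genes 0.93 and 1.25. Sex also differed here. Y-linked genes without Xist were read in 38 of 52 members of control 2 and in no member of the other 3 E16.5 libraries, where Xist was read in 5 of 8, 17 of 17 and 17 of 17. At E15.5 Xist was read in 88 of 91, 80 of 82, 180 of 188 and 104 of 108 members, and both E17.5 libraries carried Y-linked UMIs, so sex did not differ between the groups of those stages.

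Ccnb1, encoding the cyclin that drives entry into mitosis, measured 91.3 and 84.6 CPM in E16.5 controls and 9.09 and 3.15 CPM in MOF cKO libraries, from 7, 63, 3 and 1 UMIs. Its log2 fold change was −3.57 (SE 0.53, edgeR adjusted p = 0.0158). Cdc20, an activator of the anaphase-promoting complex, measured 130 and 152 CPM against 24.2 and 22 CPM (−2.46, SE 0.38, edgeR adjusted p = 0.0172). Both genes sat several-fold lower in each MOF cKO library than in either control. Ube2c, the ubiquitin-conjugating enzyme of the same complex, measured 91.3 and 289 CPM against 33.3 and 22 CPM (−2.83, adjusted p = 0.0369), the survivin gene Birc5 430.5 and 247 CPM against 66.6 and 25.2 CPM (−2.54, adjusted p = 0.0309) and Ccna2 65.2 and 76.5 CPM against 12.1 and 9.44 CPM (−2.59, adjusted p = 0.0326). Without control 2, Ube2c was also lost (−1.44, adjusted p = 0.350) and Ccnb1 and Ccna2 had too few UMIs to be tested, while Cdc20 and Birc5 stayed called, resting on 10 Cdc20 UMIs in 2 cells of control 1, 7 of them in 1 cell, and on 33 Birc5 UMIs, 17 of them in 1 cell. Outside the list, the mitotic genes Pimreg, at 104 and 91.3 CPM against 0 and 9.44 CPM, and Mad2l1, at 65.2 and 53.7 CPM against 3.03 and 6.29 CPM, were called as well.

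Of 20 mitosis genes 11 were tested, 5 were called lower and all 11 lay lower without overlap (31.5% of all genes tested did). Ccnb1, Cdc20 and Ccna2, low in both MOF cKO libraries, passed the filter on low counts through the controls alone. Their lack of overlap thus followed from the filter and is no separate result. The median log2 fold change of the 11 genes was −2.46, against 0.03 over all genes tested. Cdk1, the mitotic kinase, at 157 and 205 CPM against 18.2 and 66.1 CPM, and Top2a at 78.3 and 149 CPM against 6.06 and 62.9 CPM, did not pass. Of 14 S phase genes 0 were called by edgeR, with a median of −0.49. The fall in Ube2c exceeded that in other non-epithelial cells by −2.14 (SE 0.38, edgeR adjusted p = 1.69e-05) and that in Ccnb1 by −2.56 (adjusted p = 0.0245). Without cells carrying markers of another type 8 mitosis genes were tested, 0 were called and their median was −2.12. The share of members with at least 3 mitosis genes after thinning was 71.4% (5 of 7 cells) and 44.4% in E16.5 controls and 29.4% and 12.5% in MOF cKO libraries, and 44.9%, 43.0%, 45.4% and 48.1% at E15.5. Over both stages the shares differed by −17.1 percentage points (exact permutation test, p = 0.333, adjusted over 5 subsets p = 0.648), by −6.36 points without thinning, by −10.4 points without E16.5 control 1 and −23.9 points without E16.5 control 2, and by −23 points with 1 more marker required (exact permutation test, p = 0.0556).

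The promoters of 4 of these genes are shown because mitotic genes often share 2 short elements close to the start site, the CCAAT box and the cell cycle homology region TTTGAA. Sequences are from RefSeq on GRCm38.p6, 5′ to 3′ on the strand of the gene, for Ccnb1 chr13:100786571-100786736 (minus strand), Cdc20 chr4:118437353-118437593 (minus strand), Ube2c chr2:164769679-164769897 (plus strand) and Birc5 chr11:117848987-117849236 (plus strand), all upstream of the annotated gene. Capitals mark CCAAT or TTTGAA on either strand.
Ccnb1: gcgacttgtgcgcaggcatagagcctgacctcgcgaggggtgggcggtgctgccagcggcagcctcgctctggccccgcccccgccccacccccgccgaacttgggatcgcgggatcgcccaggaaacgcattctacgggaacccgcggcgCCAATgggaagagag
Cdc20: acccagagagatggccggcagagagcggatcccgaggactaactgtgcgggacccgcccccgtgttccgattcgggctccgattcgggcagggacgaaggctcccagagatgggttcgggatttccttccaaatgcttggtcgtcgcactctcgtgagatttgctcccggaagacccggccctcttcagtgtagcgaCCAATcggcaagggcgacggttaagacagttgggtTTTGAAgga
Ube2c: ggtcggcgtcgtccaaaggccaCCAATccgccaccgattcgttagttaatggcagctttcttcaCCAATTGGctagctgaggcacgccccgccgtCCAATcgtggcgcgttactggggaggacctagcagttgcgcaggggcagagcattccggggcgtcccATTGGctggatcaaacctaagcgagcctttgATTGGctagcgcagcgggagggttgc
Birc5: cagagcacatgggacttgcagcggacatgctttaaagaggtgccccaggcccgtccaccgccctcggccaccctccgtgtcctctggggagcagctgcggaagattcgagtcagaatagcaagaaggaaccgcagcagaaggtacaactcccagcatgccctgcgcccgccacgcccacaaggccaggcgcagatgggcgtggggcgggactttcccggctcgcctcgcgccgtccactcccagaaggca
Ccnb1 holds 1 CCAAT match, Cdc20 1 CCAAT and 1 TTTGAA match, Ube2c 6 CCAAT matches, of which 1 pair overlaps, and Birc5 none of either. Of the 17 mitosis genes matched among the 20 listed, 15 (88.2%) held CCAAT in the 250 bases upstream of the start, against 33.9% of 32851 promoters, and 7 (41.2%) held TTTGAA, against 16.0%. These are matches of letters and not measured binding.

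The genotype effect on mitosis genes differed between the stages. The E15.5 values of Ccnb1 were 44.7 and 53.9 CPM in controls and 53.4 and 70.9 CPM in MOF cKO libraries, and those of Ube2c were 219 and 229.5 CPM against 248 and 302 CPM. The E16.5 effect was lower than the E15.5 effect by 3.96 for Ccnb1 on the log2 scale (difference −3.96, SE 0.57, edgeR interaction adjusted p = 0.00319), and the difference was −3.29 for Ube2c (SE 0.48, adjusted p = 0.00319). Of 9304 genes 93, or 1%, had a stage difference in this test, among them 10 of 20 mitosis genes, 5 of 18 immediate early genes, 5 of 20 interferon genes and 3 of 14 adhesion and chemokine genes tested. Without E16.5 control 2 edgeR called 0 stage differences, those of Ccnb1 and Ube2c included. In E17.5 members, Ccnb1 was 29.3 CPM in control and 48.5 CPM in QPC cKO cells.

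Among interferon and antigen presentation genes at E16.5, 14 were tested, 5 were called higher and 12 lay higher without overlap (17% of all genes tested did), with a median log2 fold change of 1.59. Irf7, a master regulator of interferon responses, measured 0 and 4.03 CPM in controls and 87.8 and 69.2 CPM in MOF cKO libraries. It passed the filter on low counts through the MOF cKO libraries alone, so its direction followed from the filter. Bst2, which encodes the antiviral membrane protein tetherin, measured 404 and 317 CPM against 994 and 925 CPM (1.65, SE 0.28, edgeR adjusted p = 0.0288), and Ifitm3 535 and 623 CPM against 1836 and 1532 CPM (1.73, SE 0.31, adjusted p = 0.0312). Every value of these genes in MOF cKO libraries lay above both controls. H2-K1, a class I antigen-presenting molecule, measured 26.1 and 25.5 CPM against 194 and 101 CPM, and Irf1 78.3 and 77.9 CPM against 176 and 223 CPM (adjusted p = 0.0442). The rise of Bst2 was smaller in members than in other non-epithelial cells by 2.10 on the log2 scale (difference −2.10, SE 0.25, edgeR adjusted p = 1.83e-13).

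Of 17 immediate early genes tested 3 were called higher and 15 lay higher without overlap (17% of all genes tested did), with a median of 1.13. The median mitochondrial share of members also separated the groups, at 3.41% and 3.48% in controls and 4.55% and 4.42% in MOF cKO libraries, whereas in other non-epithelial cells it was 2.93% and 2.56% against 2.43% and 2.41%. With mitochondrial UMIs under 5% the list again held 3 calls, with a median of 1.43. The genes called over all members were Ier3 at 65.2 and 94.0 CPM against 479 and 371 CPM (adjusted p = 0.0117), Ier5 at 39.1 and 24.2 CPM against 109 and 148 CPM (adjusted p = 0.0207) and the stress factor Atf3 at 26.1 and 51.0 CPM against 151 and 148 CPM (adjusted p = 0.0411). Of 8 adhesion and chemokine genes tested 3 were called higher, with a median of 2.36. Cxcl2 and Cxcl10, low or at 0 in controls, were tested through the MOF cKO libraries alone and could only be higher. The neutrophil chemokine Cxcl1 measured 65.2 and 21.5 CPM against 336 and 192 CPM (3.39, SE 0.50, adjusted p = 0.0149) and Cxcl2 0 and 14.8 CPM against 124 and 148 CPM. Cxcl10, an interferon-induced chemokine, was at 0 in both controls and at 96.9 and 157 CPM in MOF cKO libraries, at least 34.8-fold higher when the controls are set at a floor of 3 UMIs over the group. Icam1 measured 104 and 64.4 CPM against 364 and 157 CPM and was not called (adjusted p = 0.0699).

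**Figure D4:**
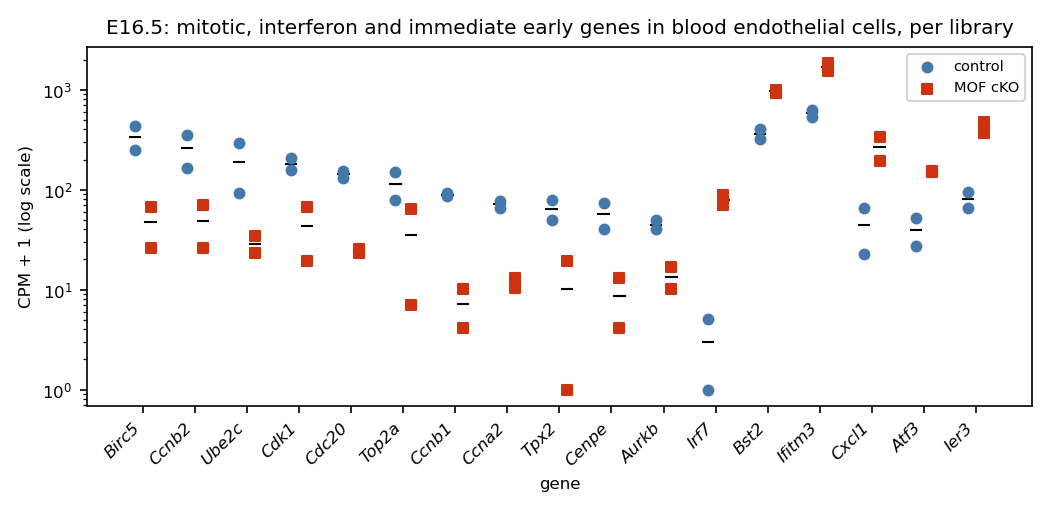
CPM plus 1 on a log axis in the endothelial cells of each E16.5 library for 11 mitosis genes and 6 interferon, chemokine and immediate early genes; circles are controls, squares MOF cKO libraries and bars group means. All 11 mitosis genes lie lower in the MOF cKO libraries, such as Ccnb1 at 9.09 and 3.15 CPM against 91.3 and 84.6 CPM in controls.

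Markers of other cell types moved with these genes. Immune markers summed to 91.3 and 118 CPM in E16.5 controls and to 2060 and 1950 CPM in MOF cKO libraries, with 5 and 2 of 8 markers at 0 in controls and none in MOF cKO libraries, and all 6 tested were called higher. The macrophage lysozyme gene Lyz2 measured 13.0 and 41.6 CPM against 903 and 834 CPM, and C1qa 0 and 1.34 CPM against 161 and 179 CPM. Markers near 0 in controls, such as C1qa, were tested through the MOF cKO libraries alone and could only be higher. A single cell held 96.2% and 94.7% of the C1qa UMIs of the MOF cKO libraries. Cells with at least 3 immune markers numbered 0 of 8 and 3 of 52 in controls and 7 of 17 and 4 of 17 in MOF cKO libraries. Without them 1 gene was called, Cxcl10, in edgeR (280 had an unadjusted p below 0.05). Ifitm3 then changed by 1.76 (adjusted p = 0.0798), Ier3 by 2.25 (adjusted p = 0.0798) and Ccnb1 by −2.85 (adjusted p = 0.132). With cells marked for another type other than erythroid left out, 12 genes were called, among them Bst2 (1.78), Ifitm3 (1.91), Ier3 (2.99) and Ier5 (2.91). With members required to carry at least 4 rule genes, 60 of 3972 genes tested were called, 42 of them shared with the 72 over all members. The 60 held 6 of 11 mitosis, 5 of 13 interferon, 4 of 7 adhesion and chemokine and 4 of 17 immediate early genes tested. Only 2 of the 8 immune markers could be tested in that setting, and 0 were called (median 0.29).

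Keratinocyte markers at E16.5 had 3 and 0 of 10 genes at 0 in controls and 3 and 3 in MOF cKO libraries, and of 2 tested 1 was called lower. Krt15 measured 91.3 and 64.4 CPM against 0 and 6.29 CPM (−4.19, SE 0.73, edgeR adjusted p = 0.0309). Lor, encoding the cornified envelope protein loricrin and named here after its values were seen, measured 248 and 101 CPM against 9.09 and 6.29 CPM (−3.93, adjusted p = 0.0172). Lymphatic markers, with 5 and 3 of 8 at 0 in controls and 4 and 4 in MOF cKO libraries, had 1 of 2 tested called higher, Maf, which macrophages also express (13.0 and 1.34 CPM against 60.6 and 72.4 CPM). Mast cell markers summed to 39.1 and 55 CPM against 518 and 84.9 CPM, with 3 and 1 of 5 at 0 in controls and none in MOF cKO libraries, and megakaryocyte markers to 0 and 22.8 CPM against 36.4 and 236 CPM, with 6 and 3 of 6 at 0 against 4 and 3. The part of these RNAs in the other E16.5 results was not tested.

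Several vessel genes are set here beside their E15.5 values. Of 9 arterial genes 0 had a stage difference called in the interaction test. Of the 4 arterial genes tested at E16.5 none was called in edgeR, with a median of 0.32 and overlapping groups. Gja4 measured 0 and 69.8 CPM against 57.6 and 72.4 CPM, with 17 of the 19 UMIs of MOF cKO 1 in 1 cell, and Efnb2 13.0 and 41.6 CPM against 51.5 and 40.9 CPM. The stage difference of Gja4 did not pass (1.66, SE 0.47, adjusted p = 0.118). The tip cell ligand Apln measured 78.3 and 96.7 CPM against 24.2 and 9.44 CPM and just missed the threshold (adjusted p = 0.0509), while at E15.5 it had been 94.4 and 79.0 CPM against 63.7 and 77.1 CPM. The genotype effect on Apln was lower at E16.5 than at E15.5 (difference −2.03, edgeR adjusted p = 0.0465). Igf1 rose at E16.5 too, from 52.2 and 25.5 CPM to 167 and 170 CPM (2.65, SE 0.38, edgeR adjusted p = 0.0149), more than in other non-epithelial cells by 2.32 (adjusted p = 6.42e-06). The call was lost without immune-marked cells (2.59, adjusted p = 0.0798), without cells marked for any other type but erythroid (3.23, adjusted p = 0.0510) and without control 1 (2.81, adjusted p = 0.490). Its effect was larger at E16.5 than at E15.5 by 1.78 (SE 0.40, adjusted p = 0.0403).

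Of the 6 venous genes tested at E16.5 none was called in edgeR and all 6 had positive fold changes, with a median of 1.12. Ephb4, the receptor of Efnb2, measured 26.1 and 40.3 CPM in controls and 96.9 and 75.5 CPM in MOF cKO libraries. Cells with at least 2 venous genes after thinning made up 57.1% and 40.0% of members in E16.5 controls and 82.4% and 68.8% in MOF cKO libraries, and 53.9%, 55.7%, 57.9% and 56.7% at E15.5. The difference over both stages was 14.75 percentage points, the largest arrangement possible (exact permutation test, p = 0.0556), and it did not pass after adjustment over 5 subsets (p = 0.278). It was 5.66 points without thinning (p = 0.5) and 5.69 points with 1 more marker required (p = 0.944, exact permutation tests). The 61 respiratory chain genes held no call at either stage, with medians of −0.11 at E15.5 and −0.17 at E16.5. Of the 61, 49 had negative fold changes at E15.5 and 41 at E16.5. Without overlap 31 lay lower at E15.5 (24.2% of all genes tested did) and 25 at E16.5 (31.5% did). The E16.5 median was 0.14 without control 2, where 1 of the 61 was called higher, and −0.33 without control 1, where 57 of the 61 had negative fold changes. At E15.5 it ran from −0.17 without control 2 to −0.03 without MOF cKO 6.

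At E17.5, with 1 library per group and therefore no test, endothelial cells of QPC cKO skin had lower levels of 5 of 10 adhesion and chemokine genes and 4 of 17 immediate early genes, and higher levels of 2 of 6 venous genes and of the matrix genes Eln, Fbln2 and Fbn1. A gene was past the rule when its CPM differed by 2-fold or more, 1 or both libraries had 20 UMIs or more and the exact Poisson 95% intervals did not overlap, which cover counting error only. Of 5120 genes 110 lay higher and 120 lower in QPC cKO cells (2.15% and 2.34%). These values compare 2 libraries and not the conditions. A gene that reached 20 UMIs in 1 library alone entered the count through the library where it was higher.

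Icam1, the leukocyte adhesion molecule, was 859 CPM (780.2 to 943) in control and 279.9 CPM (239.7 to 325) in QPC cKO members. Irf1 was 482 CPM (424 to 546) against 82.5 CPM (61.4 to 108), and Cxcl1 144 CPM (113 to 181) against 14.6 CPM (6.66 to 27.6). The other chemokines Ccl2 (70.2 against 4.85 CPM), Cxcl2 (70.2 against 9.71 CPM) and Cxcl10 (76.1 against 1.62 CPM) were also lower. Tnfaip3, a feedback inhibitor of NF-kappaB signalling, was 111 CPM (84.2 to 144) against 8.09 CPM (2.63 to 18.9). Of 10 adhesion and chemokine genes measured 5 were past the rule lower and 1 higher (Cxcl12, 41.0 against 107 CPM), with a median log2 ratio of −1.52, against 0.01 over all genes. Of 17 immediate early genes 16 had a lower CPM and 4 were past the rule (median −0.81), such as Junb at 1569 CPM (1462 to 1681) against 728 CPM (662 to 798) and Zfp36 at 466 against 178 CPM. Interferon genes did not share this direction, since 12 of 15 had a higher CPM in QPC cKO members, 3 were past the rule higher and 1 (Irf1) lower.

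The venous list had a median log2 ratio of 1.03, all 6 genes measured were higher and 2 were past the rule. Nr2f2 was 42.9 CPM (26.9 to 65.0) against 175 CPM (143 to 211), with a UMI in 32.4% and 66.7% of members, and Vwf was 44.9 CPM (28.5 to 67.3) against 176 CPM (145 to 213), in 23.5% and 46.1%. After thinning, 50% of control and 78.9% of QPC cKO members carried at least 2 venous genes, and 62.5% and 47.4% carried at least 2 arterial genes. The arterial Notch ligand Dll4 was 160 CPM (127 to 199) against 58.2 CPM (40.8 to 80.6), whereas Jag1 was 46.8 against 119.7 CPM. Gja5 had 0 UMIs against 22, at least 6.08-fold higher against a floor of 3 UMIs, but 1 of the 2 cells with a UMI held 68.2% of them. Calcrl, the receptor of adrenomedullin, was 48.8 CPM (31.6 to 72.0) against 191 CPM (158 to 229), and Lrat, which esterifies retinol, 50.7 against 286 CPM, with a UMI in 23.5% and 56.4% of members. Of 13 capillary genes 8 had a higher CPM in QPC cKO members, 2 were past the rule lower and none higher, with a median of 0.35. One of the 2, Car4, a membrane carbonic anhydrase, was 76.1 CPM (54.1 to 104) against 16.2 CPM (7.76 to 29.8).

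Among the named genes Eln, encoding elastin, had the largest ratio of QPC cKO to control. It was 7.81 CPM (2.13 to 20) in control and 403 CPM (354 to 456) in QPC cKO members, but 1 cell held 48.6% of its 249 UMIs and 11 of 39 cells had any. Fbln2 was 60.5 against 476 CPM, with 43.5% of UMIs in 1 cell, and Fbn1, encoding fibrillin, 29.3 against 194 CPM. Mural markers summed to 27.3 CPM (4 of 9 at 0) in control and 150.5 CPM (none at 0) in QPC cKO members, fibroblast markers to 716 and 1079 CPM, erythroid markers to 15.6 and 278 CPM and keratinocyte markers to 566 and 303 CPM. Cells with at least 3 markers of another type, erythroid aside, numbered 0 of 34 and 3 of 39. Without these 3 cells 204 genes were past the rule, 178 of them shared with the 230, and the log2 ratios of Eln (5.57), Fbln2 (2.87) and Fbn1 (2.63) were close to those over all members (5.52, 2.95 and 2.69). Of 16 basement membrane genes, the fixed list nearest to matrix, 0 were past the rule, with a median of 0.06. Leaving out the erythroid-marked cells as well took the globin Hbb-bs, at 7.81 against 125 CPM, to a log2 ratio of 0.33. Hbb-bs is itself among the markers by which those cells were left out. Of 14 mitosis genes 4 were past the rule higher, such as Cdc20 at 17.6 CPM (8.03 to 33.3) against 92.2 CPM (69.8 to 119), while 28.1% of control and 21.1% of QPC cKO members carried at least 3 mitosis genes after thinning. None of the 61 respiratory chain genes was past the rule, with a median of −0.00841.

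**Figure D5:**
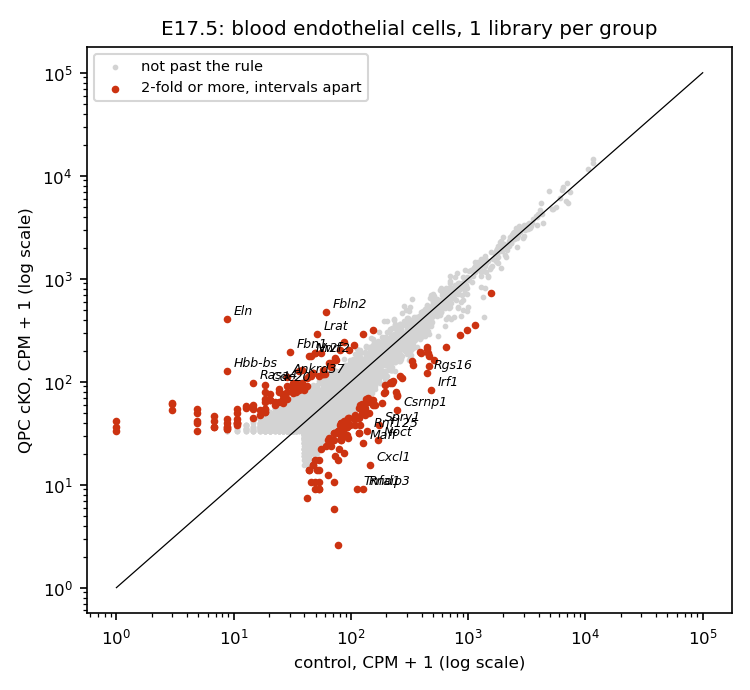
CPM plus 1 in the control (horizontal axis) and QPC cKO (vertical axis) endothelial cells at E17.5, both on log axes, for the 5120 genes that reached 20 UMIs in 1 or both libraries; the line marks equality and coloured points are the 230 genes past the rule. Eln lies at 7.81 against 403 CPM and Irf1 at 482 against 82.5 CPM.

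The control levels of the 4 genes Cxcl1, Cxcl2, Cxcl10 and Irf1 are set side by side here as a description, since stage and chemistry cannot be told apart. In controls Cxcl1 was 43.5 and 39.2 CPM at E15.5, 65.2 and 21.5 CPM at E16.5 and 144 CPM at E17.5, and Irf1 was 212 and 202 CPM, 78.3 and 77.9 CPM and 482 CPM. Cxcl2 was 1.23 and 3.06 CPM, 0 and 14.8 CPM and 70.2 CPM, and Cxcl10 15.3 and 7.35 CPM, 0 in both and 76.1 CPM. The E17.5 control library was the highest control for all 4. MOF cKO and QPC cKO libraries were made at different stages and with different chemistries, so their effects on these genes are not compared.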

How the data were processed

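Per the labels, total back skin was dissociated and single-cell libraries were made with 10x chemistry. The submitters' processing notes name Cell Ranger 6.1.2 and 1.3.1. The authors deposited whole-number UMI counts per gene and cell barcode aligned to mm10, and the counts were used as deposited. E16.5 and E17.5 tables hold different gene sets, so comparisons across stages used shared genes. Library totals ran from 13609345 to 203392303 UMIs.

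Member counts were summed per library. Control and cKO sums were tested with edgeR 4.0.16 (quasi-likelihood, filterByExpr, TMM, Benjamini-Hochberg adjusted p below 0.05) in R 4.3.3, at E15.5 and E16.5 apart. Rule genes were left out of the counts of calls. A stage by genotype term and a cell type by genotype term with the sample in the fit tested differences between effects. DESeq2 1.42.0 was an alternative. CPM is relative to all UMIs of a library's members. Shares were compared by exact permutation tests. The self-test on simulated data recovered with edgeR 90.5% of 200 changed genes in the E15.5 design and 0% of 155 in the E16.5 design, so a gene that is not called at E16.5 is not shown to be unchanged. No doublet caller was run, and cells with at least 3 markers of another type were counted instead. For fibroblasts the markers counted were Lum, Dpt, Pdgfra and Twist2.

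Genes were named from lists by role, called genes first and then the highest levels. In addition up to 10 rises and 10 falls per comparison were eligible, among called genes without overlap and with a mean of at least 20 CPM in a group; at E17.5 at least 50 UMIs were needed. The members, lists and tests were chosen with earlier results of these data known. At E16.5 controls and MOF cKO libraries share replicate numbers 1 and 2, and at E15.5 they share none. Alternatives were another normalization, no filter, other rules for cells, a replicate block and leaving out each library. Promoter sequences and gene coordinates are from RefSeq and GENCODE on GRCm38.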

Additional observations from a re-analysis of the deposited data

Results flagged for a closer look

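The genotype effect at E16.5 minus that at E15.5, tested as an edgeR interaction term over 8 libraries, set 20 named genes apart. Relatively higher at E16.5 were the chemokines Cxcl1 (log2 difference 3.62, adjusted p = 0.0022) and Cxcl10 (10.85), the macrophage genes Aif1 (14.9), Maf (4.87) and Cd68 (3.68), the interferon genes Ifi203 (4.97), Irf7 (4.32) and Rsad2 (3.31), and the signalling genes Map3k8 (3.54) and Gem (3.27). Relatively lower were 10 genes that act in mitosis, Ccnb1 (−3.96, adjusted p = 0.00319), Ube2c (−3.29, adjusted p = 0.00319), Pimreg (−4.29), Cenpf (−4.05), Plk1 (−3.90), Mad2l1 (−3.48), Kif22 (−3.46), Cenpe (−3.25), Kif20b (−8.67) and Ndc80 (−8.30). The adjusted p of these 20 genes ran from 0.0022 to 0.0462. The fitted values of Aif1, Cxcl10, Kif20b and Ndc80 rest on a group with 0 UMIs and are no measure of size. At least 3 immune markers were present in 7 of 17 and 4 of 17 members of the E16.5 MOF cKO libraries, against 0 of 8 and 3 of 52 in controls, and 1 cell held 94.9% and 90.9% of their Aif1 UMIs. E16.5 libraries hold 8 to 52 members and differ in chemistry from E15.5, and without E16.5 control 2 no gene was called in this test by edgeR.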

How the results depend on the processing

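Of the 120 genes called at E15.5, the count became 263 with no filter on low counts, 22 by DESeq2, 17 in 1 fit of 8 libraries, 29 with mitochondrial UMIs under 5%, 46 without cells marked for another type other than erythroid (chosen after seeing the data) and 47 (without control 3) to 241 (without MOF cKO 5) when 1 library was left out. The 72 genes called at E16.5 became 243 with no filter, 34 by DESeq2, 243 in 1 fit of 8 libraries, 12 without cells marked for another type other than erythroid, 1 without immune-marked cells (chosen after seeing the data) and 0 (without control 1) to 187 (without control 2). Under a replicate block at E16.5 edgeR called 0 genes, with 455 at an unadjusted p below 0.05. Deviations of same-numbered libraries from their group means had r = −0.0324 over 4376 genes, and those of different-numbered libraries 0.0324. With 2 libraries per group these are mirror values, and control 1 has 8 members, so they cannot decide whether the numbers mark pairs. The study used littermate pairs, but whether a number marks a pair is not given in the sources used here. The 93 stage differences became 45 by DESeq2, 252 with no filter and 0 (without E16.5 control 2) to 140. The 238 differences from other non-epithelial cells at E15.5 became 58 by DESeq2 and 95 to 149, and the 83 at E16.5 became 11 by DESeq2 and 50 to 78. At E17.5 a floor of 50 UMIs left 116 of 230 genes.

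Scaling by library size alone moved the share of higher calls from 51.7% to 41.2% at E15.5, from 80.6% to 66.0% at E16.5 (where the median of all genes moved to −0.15), from 64.5% to 52.7% for stage differences and from 79.0% to 49.1% for differences from other cells at E15.5. All arterial genes tested at E15.5 (8 to 10 genes) and all mitosis genes tested at E16.5 (6 to 20 genes) had negative fold changes in every setting run, with 1 to 6 and 0 to 14 of them called. The E16.5 share difference reversed to −0.0784 percentage points without cells marked for another type other than erythroid, and ran from −0.314 (without control 1) to 1.11 with 1 library left out. The arterial subset difference reversed to −0.55 with 1 more marker required; with 1 library left out the tip cell difference ran from −4.53 to 5.58 and the capillary one from −5.83 to 0.419. Without thinning the venous difference was 5.66 and the mitosis one −6.36. Postn at E15.5 reversed to −0.11 without cells marked for another type, most of which carried fibroblast markers. The causes of this and the other shifts were not tested. Among named genes 825 values under alternatives kept their side of the threshold, 264 were weaker, 1 reversed and 1 moved. Leaving out every cell with markers of any second type, erythroid included, gave no value at E15.5 and E16.5, since nearly every member held globin UMIs. E16.5 control 1, with 8 members, limits all E16.5 results.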
